A study of Mus musculus with 6 samples.

Results

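The genes of the NuRD complex were examined for SALL4 binding in mouse embryonic stem cells. The members are 10 genes that encode NuRD subunits (Chd4, Hdac1, Hdac2, Mta1, Mta2, Mta3, Mbd3, Rbbp4, Gatad2a and Gatad2b). Taken as SALL4 intervals of a gene were all peak intervals in its body or within 20 kb on either side, after overlapping lines of one list were merged. The 10 windows span 850 kb in all. They held 48 of 55058 and 46 of 48295 intervals in wild-type replicates 1 and 2, and 0 of 34 and 0 of 39 in knockout replicates 1 and 2. Binding was mapped by CUT&RUN, in which an antibody directs a nuclease to its target in permeabilised cells and the DNA cut free is sequenced. The wild type, as the titles call it, was a line with Sall4 F/F (an intact gene flanked by recombination sites), and the knockout was a Sall4 -/- line. Both were grown in 2i + LIF, a medium with kinase inhibitors and a cytokine that keeps stem cells undifferentiated. Each genotype is 1 line with 2 SALL4 libraries, and nothing states that the libraries came from separate cultures, so differences between lines and between genotypes cannot be told apart. The 2 IgG libraries, 1 per line, were not analysed here.

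NuRD is a corepressor that joins a chromatin-remodelling motor to histone deacetylases. CHD4 is the ATPase that moves nucleosomes, HDAC1 and HDAC2 remove acetyl groups from histones, and the MTA proteins form the scaffold that holds the deacetylases. RBBP4 binds histones, MBD3 sits between the deacetylase and remodelling modules, and GATAD2A or GATAD2B links MBD3 to CHD4. SALL4 is a zinc-finger protein that recruits NuRD through a short peptide at its N terminus, which is bound by RBBP4, and it binds short A/T-rich DNA through its last zinc-finger cluster. In embryonic stem cells NuRD restrains pluripotency genes and is needed for orderly exit from self-renewal.

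The lists give no read totals. The number of fragments piled up at each summit was recovered from the deposited fold enrichment and p-value, and came out whole for 100% of the intervals of each list. The median over all intervals was 9 fragments in both wild-type lists. At the NuRD genes it was 9 and 8 fragments, with a range of 4 to 36 in replicate 1 and 4 to 32 in replicate 2, so most single intervals rest on few fragments. The window of Sall4 itself held 7 intervals in each wild-type list and 0 in each knockout list, which is no check of the labels, since the knockout lists hold few intervals anywhere. The files hold no expression values, so the labelled cell type was not checked against markers.

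SALL4 intervals at the NuRD genes were called in wild type and in neither knockout list. The wild-type lists held 47 ± 1.41 (SD, n = 2) intervals in the 10 windows and the knockout lists 0 ± 0 (SD, n = 2). On the scale of log2(number + 1) the difference was 5.58, against an SD of 0.043 between the wild-type libraries. A two-sided exact permutation test of 2 libraries against 2 gave p = 0.3333, the smallest it can give, so the test cannot pass 0.05. The knockout lists are short throughout, with an interval at 0.00914% of 21887 coding genes in each. Their weakest merged intervals were also stricter, at a −log10 p of 7.63 and 7.12 against 3.55 and 3.60 in wild type. At a −log10 p of 7.63 or more, 25 of the 48 and 19 of the 46 wild-type intervals at NuRD genes remained.

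The complex was divided into genes with repeated SALL4 intervals and genes with few or none. At least 1 interval was listed at 8 of the 10 genes in replicate 1 and at 7 in replicate 2, beside 59.6% and 56.5% of all coding genes under the same window rule. Regions called in both wild-type lists and overlapping no knockout interval (consensus regions) lay at 5 of the 10 genes, beside 51.4% of coding genes, so the number of genes reached is near the background. The 5 genes were Mta3, Gatad2b, Hdac2, Rbbp4 and Hdac1, with 10, 9, 5, 5 and 3 consensus regions. Chd4, Mta1, Mta2, Mbd3 and Gatad2a had 0. Each of these 5 had intervals in 1 of the 2 wild-type lists, 7 in all, with fold enrichments of 3.38 to 5.44 and pileups of 4 to 9 fragments. Taking either wild-type list alone, 7 genes (replicate 2) or 8 genes (replicate 1) had an interval.

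**Figure D1:**
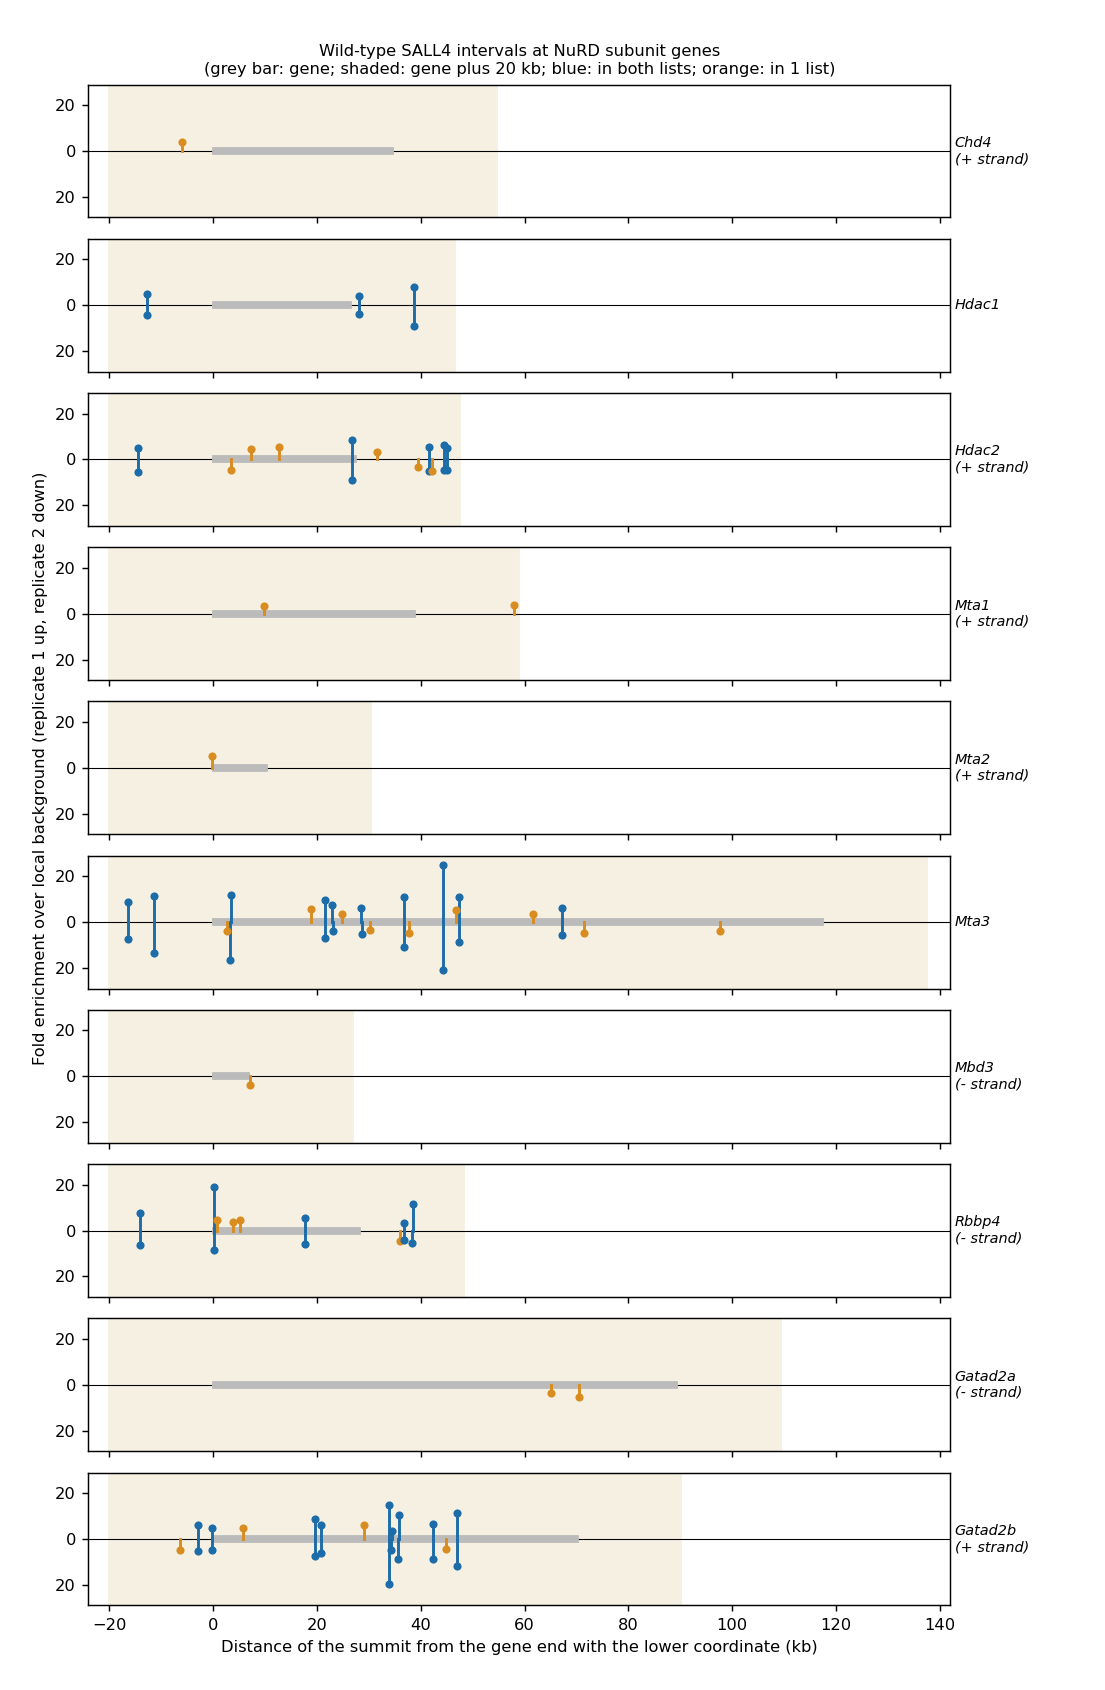
Wild-type SALL4 intervals at the 10 NuRD genes, placed by the distance of the summit from the gene end with the lower coordinate (kb), with the fold enrichment of replicate 1 drawn upward and that of replicate 2 downward. Grey bars are the genes and shading is the window; Mta3 and Gatad2b carry 10 and 9 regions seen in both lists (blue), and Chd4, Mta1, Mta2, Mbd3 and Gatad2a only intervals of 1 list (orange).

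At the 5 genes with consensus regions, the total counts differed little between the replicates, although not all intervals were the same. In each list, 10 intervals at Mta3, 9 at Gatad2b, 5 at Hdac2, 5 at Rbbp4 and 3 at Hdac1 were found in the other. Mta3 had 14 and 15 intervals in replicates 1 and 2, a mean of 14.5 ± 0.707 (SD, n = 2). Gatad2b had 11 and 11, Hdac2 had 8 and 8, Rbbp4 had 8 and 6, and Hdac1 had 3 and 3. The counts of Hdac2 and Rbbp4 overlapped between the lists, and those of the other neighbours in this order did not. With 2 libraries of 1 line the order is a description, and counting error was not included. Mta1 had 2 and 0 intervals, Gatad2a 0 and 2, Chd4 and Mta2 1 and 0, and Mbd3 0 and 1, and these 5 genes cannot be ordered.

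**Figure D2:**
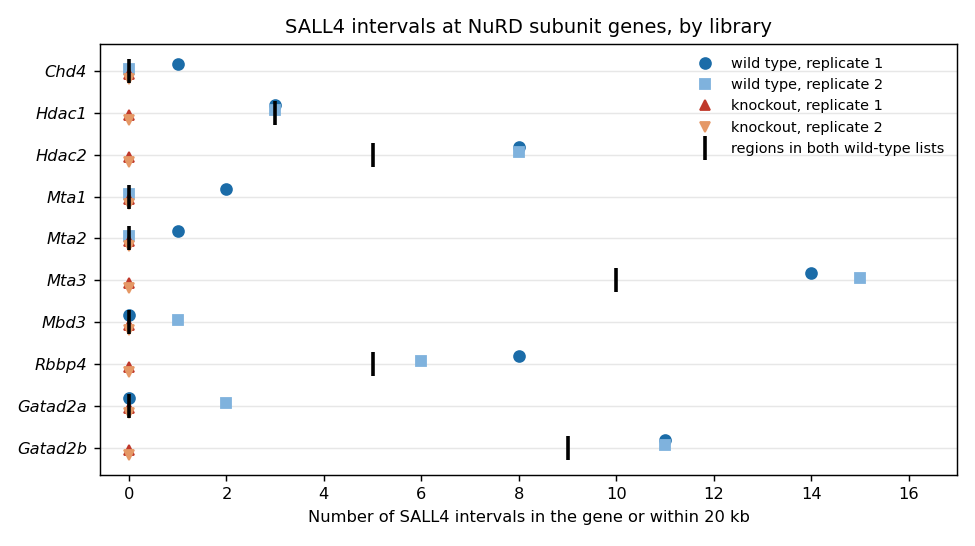
Number of merged SALL4 intervals in each NuRD gene or within 20 kb of it (x axis), for the 2 wild-type and 2 knockout libraries, with black bars for regions in both wild-type lists. All knockout points lie at 0, and Mta3 and Gatad2b lie highest with 14 and 15, and 11 and 11, wild-type intervals.

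Long genes offer more room, so regions were also counted per 10 kb of window. Gatad2b had 0.817 consensus regions per 10 kb, Hdac2 0.740, Rbbp4 0.732, Mta3 0.635 and Hdac1 0.451. Of all coding genes, 95.8% had a lower density than Gatad2b, 94.9% than Hdac2, 94.7% than Rbbp4, 92.6% than Mta3 and 86.7% than Hdac1. These percentages include the 48.6% of coding genes with a density of 0, which any gene with a consensus region exceeds. The median over the 10 genes was 0.225 per 10 kb, between the 5 genes at 0 and the 5 above 0.45. At the other settings tried, this median ran from 0 to 0.352 per 10 kb. The median over coding genes, with 20 kb flanks, was 0.055 with an upper quartile of 0.244. With all windows pooled, the density was 0.376 over the 10 genes and 0.189 over coding genes. Mta3 and Gatad2b together held 19 of the 32 consensus regions, 59.4%, in 31.5% of the window length.

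The gene of the remodelling ATPase, Chd4 (gene ID 107932, chr6:125095980-125130591, GRCm38), had a single interval. It lay 5.95 kb before the start of the gene, in no annotated gene, with a fold enrichment of 4.13 and a pileup of 5 fragments in replicate 1. Replicate 2 listed 0 intervals in this window.

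The deacetylase genes both had consensus regions, most of them outside the transcribed gene. At Hdac1 (gene ID 433759, chr4:129516104-129542646) all 3 intervals of each list were shared and all 3 lay outside the gene. The strongest, chr4:129554679-129554916, lay 12.1 kb past the upper end of Hdac1 within Lck, a lymphocyte kinase gene, with fold enrichments of 8.13 and 9.05 and pileups of 15 and 17 fragments. The region 12.8 kb below the gene had fold enrichments of 4.82 and 4.38 and lay nearer to another gene, Marcksl1, 10247 bp away. The other, 1.62 kb above Hdac1, had 4.06 and 4.02. At Hdac2 (gene ID 15182, chr10:36974297-37001889) 1 of 5 consensus regions lay in the gene. That region, chr10:37000972-37001300, was also the strongest, with fold enrichments of 8.38 and 8.83, and its summit lay 0.821 kb inside the far end of the gene. A group of 3 regions lay 14.0 to 17.4 kb past that end, with mean fold enrichments of 4.79 to 5.48. The last lay 14.4 kb before the gene, with fold enrichments of 4.82 and 5.44. No other annotated gene overlaps the Hdac2 summits.

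The 3 genes of the MTA scaffold family differed in their intervals. Mta3 (gene ID 116871, chr17:83706163-83823715) had 10 consensus regions, and Mta1 (gene ID 116870) and Mta2 (gene ID 23942) had 0. The window of Mta3 is also the longest, at 157.6 kb against 79.0 and 50.4 kb. At Mta3, 8 regions lay in the gene and 2 lay 16.3 and 11.3 kb below its lower end. The strongest region of the 10 genes, chr17:83750101-83750810, lay within Mta3, 44.2 kb from that end. Its fold enrichments were 25.01 and 20.7 in replicates 1 and 2, on 36 and 30 fragments, and it ranked 915 of 55058 and 1455 of 48295 in the lists. Of all consensus regions, 97.2% had a worse rank. The region at chr17:83709221-83709764, 3.40 kb inside the lower end, had fold enrichments of 11.7 and 16.3, and chr17:83694600-83695087, 11.3 kb outside it, had 11.5 and 13.3. The regions 36.8 and 47.3 kb inside the lower end had 10.8 and 10.7, and 10.8 and 8.76. The other 5 had mean fold enrichments of 5.56 to 8.28. No consensus region lay in the last 50.3 kb of the gene, where replicate 2 listed intervals at 71.4 and 97.6 kb with fold enrichments of 4.76 and 4.08. Neighbouring summits were a median of 7.47 kb apart. The summit at 67.2 kb also lies in Gm46597, a long non-coding RNA gene within Mta3.

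Mta1 had 2 intervals in replicate 1, with fold enrichments of 3.38 (9.78 kb into the gene) and 3.81 (18.9 kb past its far end), on 4 and 5 fragments. Mta2 had 1, with its summit 210 bp before the gene start, a fold enrichment of 5.08 and 9 fragments. It also lies in the long non-coding RNA gene Gm10353. Replicate 2 listed 0 intervals at both genes.

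The genes of the histone-binding and linker subunits were also unequal. At Rbbp4 (gene ID 19646, chr4:129307100-129335370, minus strand), which encodes the subunit that SALL4 contacts, the strongest region was chr4:129307134-129307541, with its summit 0.244 kb inside the far end of the gene, where Rbbp4 and Sync overlap. It had fold enrichments of 18.8 and 8.40, a log2 ratio of −1.16 between replicates, below the 2.5th percentile of all consensus regions (−1.01). The pileups were 36 and 24 fragments and the local backgrounds 0.968 and 1.98 fragments, so both the pileup and the background moved with this difference. The part each plays was not tested. A region 10.5 kb into Rbbp4 had fold enrichments of 5.51 and 6.04. The other 3 lay in neighbours. The one in Sync had fold enrichments of 7.62 and 6.25, and the pair in Zbtb8os, beyond the start of Rbbp4, had 3.44 and 4.08, and 11.7 and 5.44. The last pair differed by −1.11 on the log2 scale, on 16 and 7 fragments over backgrounds of 0.452 and 0.471. Mbd3 (gene ID 17192) had 1 interval, in replicate 2, with a fold enrichment of 3.81 and 7 fragments.

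Of the GATAD2 linkers, Gatad2b (gene ID 229542, chr3:90293181-90363405, plus strand) had 9 consensus regions and Gatad2a (gene ID 234366, chr8:69907069-69996402) had 0. In Gatad2b 7 regions lay in the gene, from 19.7 to 47.0 kb from its start. The strongest, chr3:90326769-90327216, lay 33.8 kb into the gene with fold enrichments of 15.0 and 19.4 on 24 and 32 fragments, ranks of 4904 and 1837. The next by mean fold enrichment lay at 47.0 kb with 11.4 and 11.8, and after it came one at 35.8 kb with 10.3 and 8.84. The other 4 regions in the gene had mean fold enrichments of 4.02 to 8.06. The 2 regions before the gene lay 2.85 kb and 0.127 kb from the start, with fold enrichments of 6.10 and 5.03, and of 4.82 and 4.76. Gatad2a had 2 intervals in replicate 2, 24.2 and 18.8 kb from its start within the gene, with fold enrichments of 3.40 and 5.44 on 4 and 7 fragments, and 0 in replicate 1, although its gene is longer (89.3 kb against 70.2 kb).

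Start sites were examined with a RefSeq promoter table. RefSeq promoter windows (GRCm38.p6, 250 bases before to 50 after a start) were matched for 8 of the 10 genes, 11 windows in all, and not for Hdac1 and Mta3. One of the 11, at Gatad2b, overlapped a consensus region, beside 3.4% of 21263 windows of coding genes. In each wild-type list 2 of the 11 overlapped an interval, Gatad2b with Mta2 in replicate 1 and Gatad2b with Mbd3 in replicate 2, beside 4.93% and 4.11% of windows. The 11 windows had 0 intervals at Chd4, Gatad2a, Hdac2, Mta1, Rbbp4 and the second start of Gatad2b. The sequences of these 3 promoters are shown because they hold all the start-site calls at these 8 genes. Each gives the 250 bases before the start, 5′ to 3′ on the gene's strand, with capitals for the bases inside the SALL4 interval (inside both replicates' intervals for Gatad2b). They are chr3:90292931-90293180 (plus), chr10:80399532-80399781 (minus) and chr19:8941670-8941919 (plus).
Gatad2b: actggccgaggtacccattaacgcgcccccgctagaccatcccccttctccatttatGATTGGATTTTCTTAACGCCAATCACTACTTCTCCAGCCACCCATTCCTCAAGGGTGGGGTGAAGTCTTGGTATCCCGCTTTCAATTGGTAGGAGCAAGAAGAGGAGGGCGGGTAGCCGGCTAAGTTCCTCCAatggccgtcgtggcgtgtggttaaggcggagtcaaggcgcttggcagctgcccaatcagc
Mbd3: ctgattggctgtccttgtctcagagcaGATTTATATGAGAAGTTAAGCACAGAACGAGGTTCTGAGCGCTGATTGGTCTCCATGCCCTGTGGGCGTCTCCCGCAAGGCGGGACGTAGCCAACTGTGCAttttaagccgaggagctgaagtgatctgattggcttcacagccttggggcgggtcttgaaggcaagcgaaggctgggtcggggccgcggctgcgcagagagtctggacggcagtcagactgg
Mta2: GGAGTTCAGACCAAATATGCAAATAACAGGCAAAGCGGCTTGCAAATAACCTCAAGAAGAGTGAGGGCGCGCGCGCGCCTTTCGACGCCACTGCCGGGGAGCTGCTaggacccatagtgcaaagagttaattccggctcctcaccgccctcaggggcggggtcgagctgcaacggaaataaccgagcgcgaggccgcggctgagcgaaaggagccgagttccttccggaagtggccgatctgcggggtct

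The 133 capital bases at Gatad2b were 48.1% A or T, the 101 at Mbd3 45.5% and the 106 at Mta2 43.4%. The 250 bases before the start were 44.0%, 42.4% and 39.6% A or T, against a median of 44.4% over the promoters of coding genes. The motifs AATA, ATATT and AATATT were searched on both strands, and the longest of them contains the shorter ones. Of all promoters, 55.6%, 20.6% and 5.55% held them in the 250 bases. Within the capitals, Mta2 held 3 matches to AATA and 1 to ATATT, and Gatad2b and Mbd3 held 0 of each. A match describes the letters only and is not a measured contact.

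Of the 32 consensus summits, 1 (3.13%) lay within 1 kb of a start in that table, beside 4.23% of all 37997 consensus summits. At Hdac1 and Mta3, whose own starts are not in this count, the consensus summits nearest to either gene end were 1.62 and 3.40 kb from it. Inside the NuRD genes, by the summit, lay 18 of the 32, 56.3%, where gene bodies make up 53.0% of the window length. Of the other 14, 4 lay within another gene and 10 in no gene.

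The strength of the NuRD regions was set beside that of all consensus regions. The median of the mean fold enrichment was 7.23 over the 32 regions and 6.84 over all consensus regions, and 17 of the 32 lay above the latter. Over all intervals, shared or not, the median fold enrichment at the NuRD genes was 5.84 in replicate 1 and 5.03 in replicate 2, against 5.86 and 5.56 over the whole lists. The mean fold enrichments of the 32 consensus regions ran from 3.76 at Rbbp4 to 22.8 at Mta3. Fold enrichments of the replicates had a Spearman's rho of 0.826 across the 32 regions and 0.771 across all consensus regions, which are correlations across regions of the same pair of libraries. On the log2 scale, replicate 2 differed from replicate 1 by a median of −0.09 at the NuRD genes and −0.13 over all. The median width was 320 bp against 327 bp, and summits were a median of 27 bp apart against 32 bp.

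**Figure D3:**
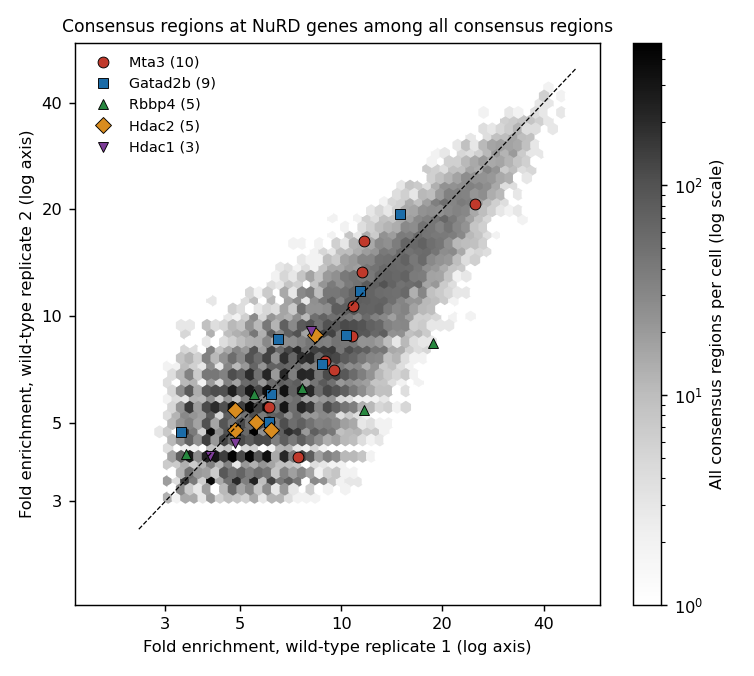
Fold enrichment of each consensus region in wild-type replicate 1 (x, log axis) and replicate 2 (y, log axis), with all 37997 regions as grey cells and the 32 regions at NuRD genes as coloured points. The points spread over the cloud, with an Mta3 region highest at 25.01 and 20.7, and 2 Rbbp4 regions lie below the dashed line of equality at 18.8 and 8.40 and at 11.7 and 5.44.

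Fewer of the NuRD intervals than of the whole lists were found in the other replicate, by less than the counting error. Of the 48 NuRD intervals of replicate 1, 32 were found in replicate 2, 66.7% (95% Wilson interval 52.5 to 78.3), beside 70.4% of the whole list. Of the 46 of replicate 2, 32 were found in replicate 1, 69.6% (55.2 to 80.9), beside 79.3%. These intervals cover counting error only and include the values of the whole lists. Intervals found in 1 list were weak, with medians of 4.51 and 4.57 in fold enrichment and 6 fragments, and none exceeded 6.20 or 9 fragments. Shared ones had medians of 7.53 and 6.14.

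Subunits and paralogs outside the 10 genes were counted in the same way. Consensus regions lay at 4 of 6 such genes, beside 51.4% of coding genes, and this difference was not tested. Rbbp7, the X-linked paralog of Rbbp4, had 12 and 11 intervals and 8 consensus regions, 1.36 per 10 kb. Its strongest region, chrX:162755930-162756584, had fold enrichments of 24.8 and 21.1. Cdk2ap1, a small NuRD subunit, had 2 consensus regions, and its relative Cdk2ap2 had 0. Mbd2, which replaces Mbd3 in a separate form of the complex, had 2. Of the paralogs of Chd4, Chd3 had 1 and Chd5 had 0. The median over the 6 genes was 0.175 consensus regions per 10 kb, and both knockout lists held 0 intervals at them.

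**Figure D4:**
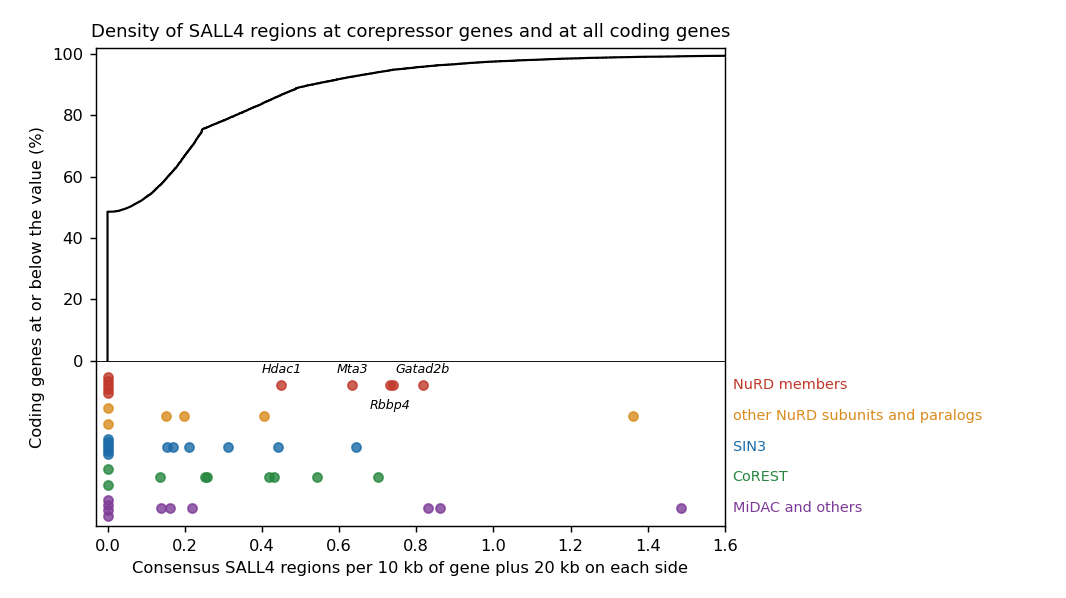
Consensus SALL4 regions per 10 kb of gene plus 20 kb on each side (x axis), as the cumulative share of 21887 coding genes (line) and as points for each gene of 5 corepressor lists below it. The NuRD members split into 5 genes at 0 and 5 from 0.451 (Hdac1) to 0.817 (Gatad2b); the axis ends at 1.6, above which lie 0.585% of coding genes.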

How the data were processed

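Peak lists of 4 SALL4 CUT&RUN libraries were used, grouped by their titles. Trim Galore 0.6.0, cutadapt 1.18, FastQC 0.11.8, BWA 0.7.17 and MACS2 2.1.1.20160309 and the build GRCm38 (mm10) are named in the submitters' processing notes. The settings and the control library are not given in the sources used here. Each list was called on 1 sample. The deposited score equals 10 times the −log10 q-value, cut to a whole number, and the deposited fold enrichment is a ratio to the peak caller's local background. Each deposited −log10 p- or q-value is that of the summit. Fold enrichments are the authors', each relative to the background of its own list. Ranks were taken within a list, and means and log2 ratios of the 2 wild-type lists are descriptions. Peak names of wild-type replicate 2 spell the genotype in a mixed form, and the title was followed.

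Overlapping lines were merged, keeping the line with the highest fold enrichment. Whole pileups and backgrounds were solved from fold enrichment and Poisson p with a pseudocount of 1 and a tolerance of 0.0001 in −log10 p. Consensus regions needed an overlap of at least 1 bp between the wild-type lists and none with a knockout interval. Gene positions and promoter sequences came from RefSeq tables of GRCm38.p6, which hold no exons. The rule named all 10 genes, the strongest consensus region of each by the worse of its 2 ranks, all regions of genes with 5 or fewer, and lists of other deacetylase-complex genes. The members and lists were chosen with earlier results of these data known. Lists were described beside all coding genes, with no test of enrichment. The values of 1 gene in the lists of other complexes are not reported here. Scripts ran in Python 3.11.15 with pandas 2.3.3, scipy 1.17.1, numpy 2.4.6 and matplotlib 3.10.9 and were tested on simulated data.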

Additional observations from a re-analysis of the deposited data

How the results depend on the processing

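The knockout lists are so short that the direction of the difference at the NuRD genes was fixed, and its size restates the wild-type count. Over the 12 alternatives tried it ran from 3.13 (fold enrichment of at least 10) to 6.15 (50 kb flanks) on the log2 scale, and from 5.55 to 5.61 with a library left out, which is no sign of stability. Pairing libraries by number (a replicate block) gave 5.58, and the exact sign-flip test of 2 pairs cannot go below its p of 0.5. With 1 value per library, the pairing itself was not tested.

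The window moved the counts. With the gene bodies alone there were 19 consensus regions, counted by overlap and not by summit, a median of 0 per 10 kb and 63.9% of intervals shared on average, against 32, 0.225 and 68.1%. With 10 kb flanks the median was 0.105 and the share 62.1%. With 50 kb flanks there were 50 regions at 8 genes, a median of 0.294 and a share of 71.6%. The added genes were Chd4, Mta2 and Mbd3, with 2, 3 and 1 regions beyond 20 kb. A wider window reaches more genes of any kind. The share of coding genes at this width is not given here, so the 8 genes have no background to be set beside. Mta1 and Gatad2a had 0 regions in every window tried.

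Stricter thresholds left fewer regions by construction. A −log10 q of at least 10 left 11 regions, a median of 0.0732 per 10 kb, 82.5% shared, a median fold enrichment of 11.6 and 81.8% inside the genes. A −log10 p of at least 8 left 18, 0.0740, 83.4%, 9.09 and 77.8% for the same quantities. A fold enrichment of at least 10 left 6 regions at 2 genes (Mta3 and Gatad2b), and no share of coding genes at this threshold is given. The same quantities were then a median of 0, 80.0% shared, 13.2 and 83.3%, against 7.23 and 56.3%. The shared percentage was 63.9% with a reciprocal overlap of 50% and 57.5% with summits within 100 bp.

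With one wild-type list alone, 7 to 8 genes had a region, at a median of 0.332 to 0.352 per 10 kb, a median fold enrichment of 5.03 to 5.84 and 58.7 to 62.5% inside the genes. The planned analysis of A+T content at summits was not run, as no genome sequence was used here. Pileups of 4 to 9 fragments limit what the single-list intervals show.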

Other observations

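Genes of other complexes that contain class I histone deacetylases were counted in the same way. Consensus regions lay at 19 of 31 such genes, beside 51.4% of coding genes, with a median of 0.161 per 10 kb. Of the SIN3 complex, 6 of 12 genes had one, and Arid4a had the most, with 8. Of the CoREST complex, 7 of 9 genes had one, led by the histone demethylase gene Kdm1a and by Zmym2 with 5 each. Of the MiDAC, MIER and NCoR genes, 6 of 10 had one.

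Ncor1, which encodes the scaffold of the NCoR corepressor, held the highest count of these genes. It had 40 and 39 intervals in wild-type replicates 1 and 2 and 27 consensus regions, 1.49 per 10 kb. Its strongest region, chr11:62428473-62429630, had fold enrichments of 25.1 and 24.7. Tbl1xr1, which encodes a WD40 protein of that complex, had 15 consensus regions, and Hdac3, its deacetylase, had 5. Both knockout lists held 0 intervals at all 31 genes. These differences between genes were not tested.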
